A study of Mus musculus with 12 samples.

Results

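The genes described here are the parts list of respiratory complex I in the mouse heart: every gene whose GENCODE symbol begins with Nduf or mt-Nd. Of 58 such genes in the annotation, 57 were listed in all 12 libraries, out of 12866 genes listed in all, and Ndufa11b was not listed. Expression is in FPKM, fragment counts scaled to transcript length and library depth, summed over the annotated transcripts of a gene. All 57 passed the limit for testing of at least 1 FPKM in at least 4 libraries. They comprise 7 core subunits encoded in the nucleus, 7 core subunits encoded in mitochondrial DNA, 30 accessory subunits, 8 Ndufaf assembly factors and 5 other genes that carry the name. The accessory subunits include Ndufb1-ps, counted as Ndufb1, which has no protein-coding transcript among those used. The members are 163 listed transcripts, of which 150 are in every file and were used.

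RNA came from hearts of C57BL/6 wild-type mice in 3 groups of 4 libraries. LPS+XJDHT mice received lipopolysaccharide, a component of the bacterial outer membrane that sets off an inflammatory response, at 10 mg/kg and a daily 50 mg/kg of XJDHT. XJDHT is Xijiao Dihuang decoction, a Chinese herbal formula. LPS mice received the same dose of lipopolysaccharide with saline in place of the decoction. Control mice received saline for both. Treatment lasted 3 days in each group, and the study asks how the decoction acts on the heart in this model of sepsis. The labels do not say whether a library holds 1 heart or several, and p-values measure the spread between the libraries of a group.

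Complex I oxidises NADH, passes the electrons through a flavin and a chain of iron-sulfur clusters to ubiquinone, and pumps protons across the inner mitochondrial membrane. Its core subunits carry out this chemistry, those of the nuclear genome in the peripheral arm that stands in the matrix and those of mitochondrial DNA in the membrane arm. Accessory subunits surround the core and are needed for stability, and assembly factors build the enzyme without staying in it. The heart, which makes most of its ATP by oxidative phosphorylation, holds more of the complex than most tissues.

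The libraries held 73.9 to 78.0 M fragments (M, mega), a depth read from the step between the low deposited values. Fragments of mitochondrial chromosome transcripts made up 26.1% ± 1.33 of the total in LPS+XJDHT, 26.3% ± 1.95 in LPS and 30.3% ± 1.87 in Control (SD, n = 4 each). Of 10 cardiomyocyte markers 10 were listed and 0 were at 0 in every library, and their summed level was 8568 to 11644 FPKM in LPS+XJDHT, 10776 to 12254 FPKM in LPS and 18274 to 20002 FPKM in Control. Of 10 leukocyte markers 8 were listed, and Cd3e and Cd79a were not. The 8 summed to 148 to 259 FPKM in LPS+XJDHT, 145 to 304 FPKM in LPS and 135 to 212 FPKM in Control. Markers within that sum moved in opposite ways. S100a8 averaged 42.0 FPKM in LPS+XJDHT, 38.7 in LPS and 0.517 in Control, and Itgam 28.8, 31.6 and 2.95. Lyz2 averaged 55.0, 70.3 and 141 FPKM, and Csf1r 6.59, 8.26 and 12.3. The 5 fibroblast markers summed to 563 to 903 FPKM in LPS+XJDHT, 691 to 824 FPKM in LPS and 350.4 to 426 FPKM in Control. The 5 endothelial markers summed to 138 to 166 FPKM in LPS+XJDHT, 128 to 179 FPKM in LPS and 117 to 145 FPKM in Control. Against Control, 5 of 9 tested cardiomyocyte markers fell in each LPS group, 3 of 5 fibroblast markers rose in each, 4 of 8 leukocyte markers rose in each with 2 falling in LPS+XJDHT, and no endothelial marker passed. In such bulk tissue, fewer cells of a type and less RNA per cell cannot be told apart, and the part of these shifts in the results was not tested.

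Complex I expression was lower in both LPS groups than in Control. In LPS against Control, 32 of 57 genes fell and 0 rose (limma on log2(FPKM + 1), Benjamini-Hochberg adjusted p below 0.05 over 11509 genes tested; 39 of the 57 had an unadjusted p under 0.05). Over all genes tested, 12% fell and 26.6% rose. The median log2 fold change was -0.36 for the 57 genes and 0.16 for all genes. In LPS+XJDHT against Control, 39 of 57 fell and 0 rose, beside 10.7% falling and 28.5% rising over all genes, with medians of -0.40 and 0.19. Both comparisons use the same Control libraries. When each library was scaled to its median ratio instead, which brought the median of all genes to 0.00 in both comparisons, 44 members fell in LPS and 49 in LPS+XJDHT, with 0 rising; 18.5% of all genes then fell and 18.5% rose in LPS, and 17.9% fell and 17.0% rose in LPS+XJDHT.

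Each class held genes that fell, beside 12% of all genes falling in LPS and 10.7% in LPS+XJDHT. The share was lowest for the assembly factors in LPS, at 25%, and the others that fell in LPS were 2 pseudogenes. In LPS against Control it took in 4 of 7 nuclear core genes, 3 of 7 mitochondrial core genes, 21 of 30 accessory genes, 2 of 8 assembly factors and 2 of the 5 others. In LPS+XJDHT against Control the counts were 5 of 7, 3 of 7, 25 of 30, 3 of 8 and 3 of 5. The nuclear subunits of the peripheral arm (11 of 16 in LPS and 12 of 16 in LPS+XJDHT) and of the membrane arm (14 of 21 and 18 of 21) had median log2 fold changes of -0.36 and -0.36 in LPS, and of -0.37 and -0.44 in LPS+XJDHT. No test of a difference between classes was made.

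**Figure D1:**
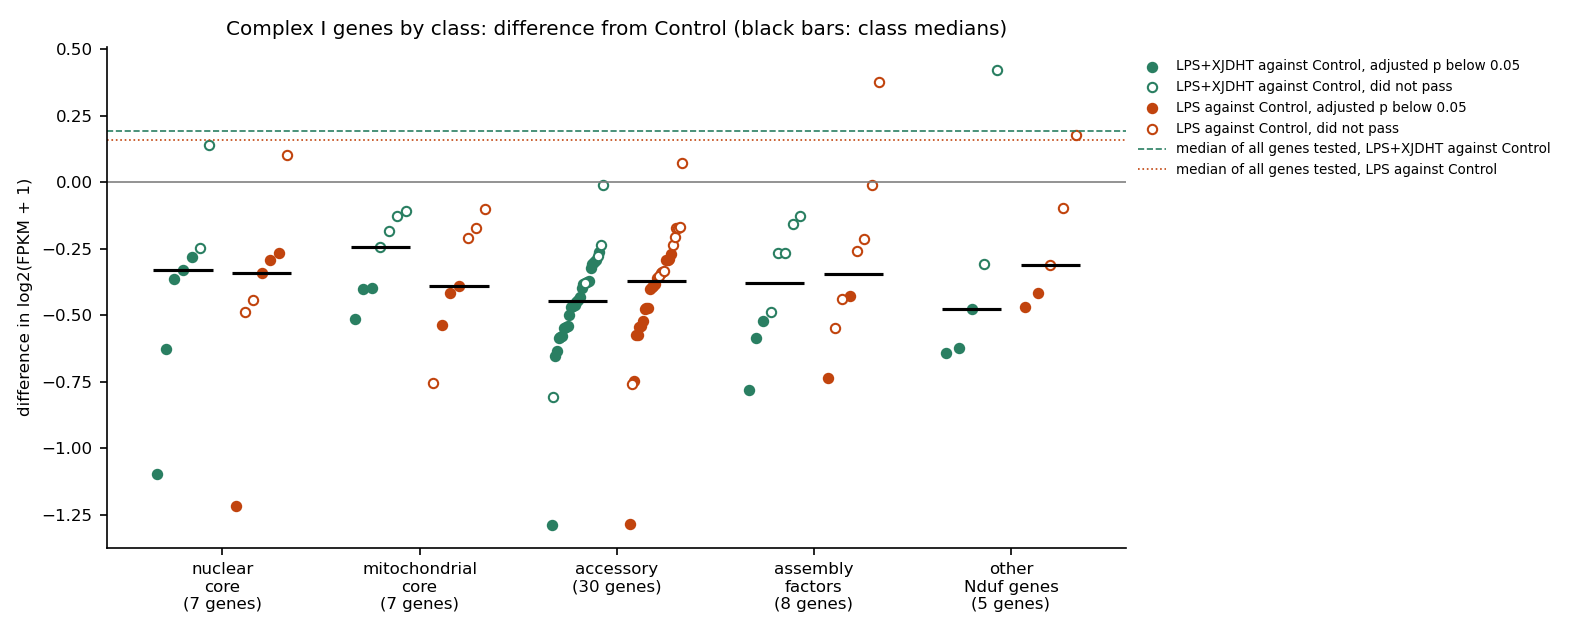
Difference in log2(FPKM + 1) from Control for each of the 57 genes by class, for LPS+XJDHT and for LPS; filled points passed an adjusted p of 0.05, black bars are class medians and dashed or dotted lines the medians of all genes tested. Most points lie under 0 in each class, and the filled ones are all under 0.

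Summed over its members, each class was lower in both LPS groups. The accessory subunits summed to 3760 to 4016 FPKM in LPS+XJDHT, 3728 to 4205 FPKM in LPS and 4937 to 5467 FPKM in Control, so the groups did not overlap. Group means were 74.4% of Control in LPS+XJDHT and 77.7% in LPS. The nuclear core reached 80.5% and 81.3% of the Control mean, the assembly factors 75.8% and 83.1%, and the mitochondrial core 84.8% and 84.2%. The mitochondrial core summed to 71896 to 91642.5 FPKM in LPS+XJDHT, 72741 to 90401 FPKM in LPS and 90745 to 106518 FPKM in Control. Its sum was 14.0 to 19.3 times that of the nuclear subunits in LPS+XJDHT, 15.4 to 17.3 times in LPS and 14.6 to 15.8 times in Control, and these ranges overlap. mt-Nd2, listed at means of 3.06 FPKM in LPS+XJDHT, 2.19 in LPS and 3.73 in Control, adds almost nothing to the mitochondrial core sum. The nuclear core stood at 0.257 to 0.280 of the accessory sum in LPS+XJDHT, 0.242 to 0.265 in LPS and 0.221 to 0.269 in Control. Set against the summed cardiomyocyte markers, the nuclear subunits stood at 0.409 to 0.552 in LPS+XJDHT, 0.398 to 0.442 in LPS and 0.327 to 0.349 in Control. They were lower by a smaller factor than that sum, which a few abundant markers dominate. Myh6 averaged 1918 FPKM in LPS+XJDHT, 1990 in LPS and 4446 in Control, and Mb 2582, 3525 and 5425. Actn2 averaged 416, 412 and 406 FPKM, and Tnnt2 1262, 1328 and 1366. Of 9 tested markers 5 fell and 4 did not pass in each LPS group, so the factor depends on the markers summed.

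**Figure D2:**
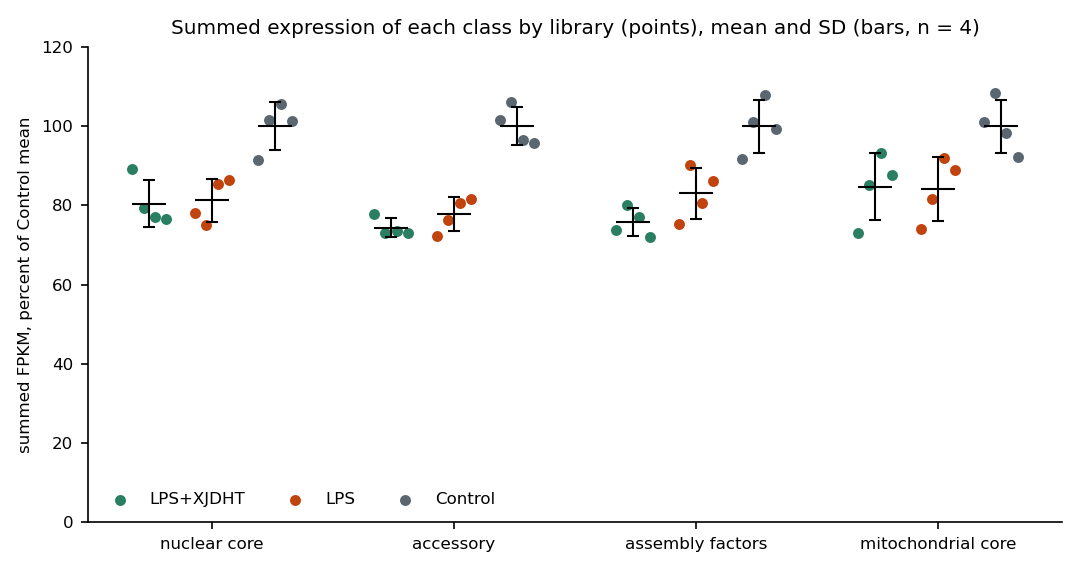
Summed FPKM of each class in each library as a percentage of its Control mean, with the mean and SD of 4 libraries, in the order LPS+XJDHT, LPS and Control. The accessory subunits show no overlap between Control and either LPS group, while the mitochondrial core overlaps Control in LPS+XJDHT and lies just under it in LPS.

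The nuclear core genes encode the electron path. Ndufv1, whose product binds the flavin that takes electrons from NADH, stood at 179, 178, 162 and 162 FPKM in LPS+XJDHT, 166, 149, 174 and 176 in LPS and 88.0, 211, 176 and 175 in Control. The groups overlap and Control 1 is the lowest library of all. Its log2 fold change was 0.10 ± 0.21 in LPS (SE; limma adjusted p = 0.732) and 0.14 ± 0.21 in LPS+XJDHT (adjusted p = 0.64), and with median-ratio scaling both values turned negative. Ndufv2, its iron-sulfur partner, had 162, 139.9, 150.3 and 130.5 FPKM in LPS+XJDHT, 123, 164, 152 and 159.9 in LPS and 179.5, 187, 190.5 and 174 in Control. All Control libraries lay above the other 8, with a log2 fold change of -0.29 ± 0.10 in LPS (adjusted p = 0.0333) and -0.33 ± 0.10 in LPS+XJDHT (adjusted p = 0.0196). The call in LPS ended without Control 1, 2 or 3 or LPS 1 (adjusted p = 0.0595, 0.0711, 0.0806 and 0.0798), and that in LPS+XJDHT without Control 3 or LPS+XJDHT 4 (0.0514 and 0.0585).

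Ndufs1 encodes the largest subunit and carries several iron-sulfur clusters, and its values were 156, 105, 138 and 120.4 FPKM in LPS+XJDHT, 106, 123, 91.4 and 135 in LPS and 172, 112, 185 and 153 in Control. The groups overlap, and neither difference passed (-0.44 ± 0.18 in LPS with adjusted p = 0.068, and -0.25 ± 0.18 in LPS+XJDHT with adjusted p = 0.293). Ndufs3, of the part of the peripheral arm that reduces ubiquinone, had 160.1, 158, 132 and 137 FPKM in LPS+XJDHT, 144, 137, 140.4 and 140.1 in LPS and 177, 174, 183 and 179 in Control. Every Control library was above every other one, and the gene fell by 0.34 in LPS and by 0.28 in LPS+XJDHT on the log2 scale (adjusted p = 0.00295 and 0.00884). Ndufs7, which holds the last cluster before ubiquinone, had 131, 120.5, 88.8 and 109 FPKM in LPS+XJDHT, 121, 95.5, 156 and 125 in LPS and 125, 187, 190.4 and 199 in Control. Control 1 lay among the LPS values, and the log2 fold change passed in LPS+XJDHT (-0.63 ± 0.18, adjusted p = 0.0177) but not in LPS (-0.49 ± 0.18, adjusted p = 0.0525). Without LPS+XJDHT 3 its adjusted p in LPS+XJDHT was 0.0507, and in LPS the gene passed in 6 of 23 alternatives. Ndufs8, which carries a pair of clusters leading to Ndufs7, was the lowest of the nuclear core genes and the one with the largest fall. It had 6.07, 8.13, 10.6 and 15.5 FPKM in LPS+XJDHT, 9.19, 8.91, 8.22 and 8.56 in LPS and 28.1, 21.7, 21.0 and 16.9 in Control. Neither LPS group overlapped Control, though LPS+XJDHT 4 lay close to Control 4. The log2 fold change was -1.22 ± 0.23 in LPS (adjusted p = 0.00143) and -1.10 ± 0.23 in LPS+XJDHT (adjusted p = 0.00272).

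**Figure D3:**
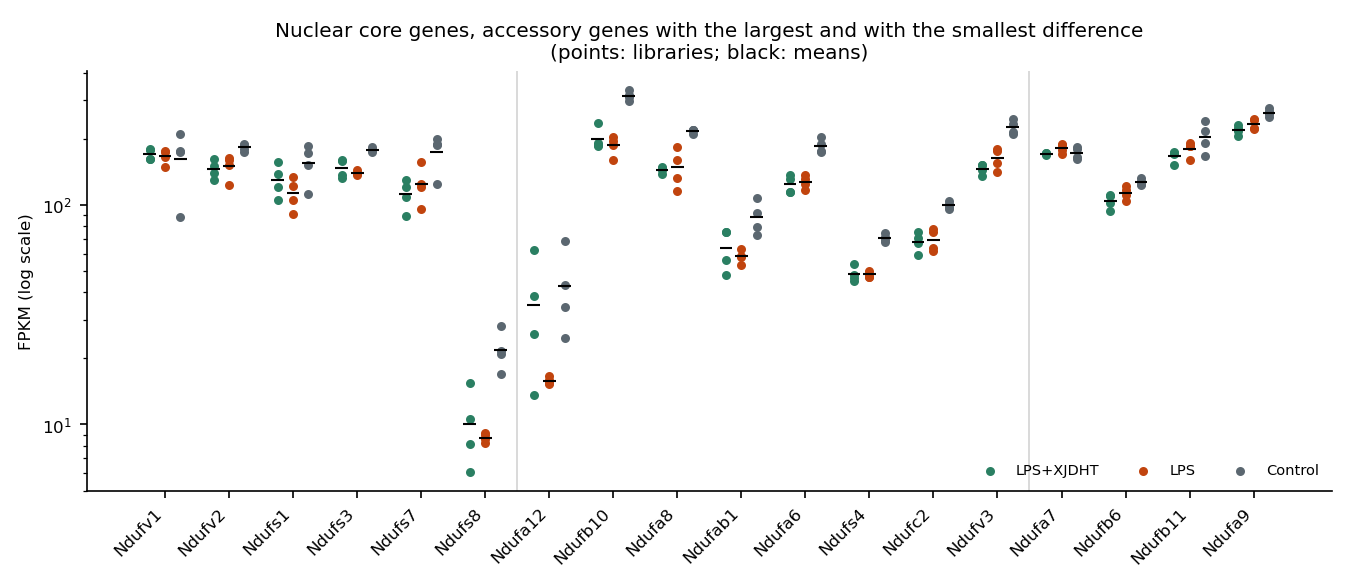
FPKM on a log scale in each library for nuclear core genes, the 8 accessory genes with the largest and the 4 with the smallest difference in LPS against Control, in the order LPS+XJDHT, LPS and Control within each gene. Ndufb10 shows a clear gap between Control and both other groups, and Ndufa7 shows none. Ndufs8 shows a clear gap between Control and LPS, and a narrow one between Control and LPS+XJDHT.

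Single transcripts were also fitted, over 18644 transcripts of all genes. Of 133 member transcripts tested, 32 fell and 6 rose in LPS against Control (8.26% and 17.3% of all transcripts), and 42 fell and 6 rose in LPS+XJDHT against Control (7.35% and 18.6%).

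Of the core genes of mitochondrial DNA, mt-Nd3, mt-Nd4l and mt-Nd4 fell in both comparisons. mt-Nd3, a small subunit at the junction of the arms, had 4087, 4622, 5275 and 4798 FPKM in LPS+XJDHT, 4327, 4538, 4778 and 4756 in LPS and 6830.2, 8099, 6174 and 5813 in Control. Control lay above all other libraries, with a log2 fold change of -0.54 ± 0.10 in LPS (adjusted p = 0.00177) and -0.51 ± 0.10 in LPS+XJDHT (adjusted p = 0.00239). mt-Nd4l and mt-Nd4 are neighbours whose reading frames overlap and which share an mRNA, and mt-Nd4 encodes a proton-pumping subunit. mt-Nd4l had 8630.2, 11691, 12520.0 and 11419.9 FPKM in LPS+XJDHT, 9169, 10497, 12199.5 and 11684 in LPS and 14797, 15468, 14095 and 13544 in Control, and mt-Nd4 had 12147, 14772, 16299 and 15502 FPKM in LPS+XJDHT, 12508, 13909, 16908 and 15941 in LPS and 19768, 20950.2, 18836 and 17652 in Control. Neither gene overlapped between Control and the LPS groups. The log2 fold changes in LPS were -0.42 ± 0.12 and -0.39 ± 0.11 (adjusted p = 0.0153 and 0.0159), and those in LPS+XJDHT -0.40 ± 0.12 and -0.40 ± 0.11 (adjusted p = 0.0192 and 0.0137). Without Control 2 the adjusted p of mt-Nd4l in LPS+XJDHT was 0.0504.

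The other 4 mitochondrial genes did not pass in either comparison. mt-Nd5, which encodes the outermost pump, had 11337, 15210.2, 16834 and 15221 FPKM in LPS+XJDHT, 12262, 13179.5, 16531 and 15507 in LPS and 16249, 17185, 16904 and 15636 in Control, and mt-Nd6, the only mitochondrial member encoded on the other strand, had 8051, 10370.3, 12026 and 10967 FPKM in LPS+XJDHT, 8854, 8930.3, 11226 and 10953 in LPS and 11124, 11978, 11516 and 10246 in Control. LPS+XJDHT 1 and LPS 1 were the lowest libraries of their groups for mt-Nd4, mt-Nd4l, mt-Nd5 and mt-Nd6. The log2 fold changes were -0.21 ± 0.12 and -0.17 ± 0.12 in LPS, and -0.19 ± 0.12 and -0.13 ± 0.12 in LPS+XJDHT. Reads of these 2 genes, whose ends overlap on opposite strands, cannot be told apart where they overlap, since the sources used here do not say whether strand was counted. mt-Nd1, which closes the ubiquinone channel from the membrane side, was the most abundant member at 27639.8, 27052, 28686 and 28367 FPKM in LPS+XJDHT, 25619, 29291, 28759 and 28738 in LPS and 30645, 32836, 29211 and 27849.5 in Control. The groups overlap, and the log2 fold change was -0.10 ± 0.06 in LPS (adjusted p = 0.226) and -0.11 ± 0.06 in LPS+XJDHT (adjusted p = 0.195). mt-Nd2, which encodes another pump, was listed far under the rest, at 3.13, 4.18, 2.35 and 2.56 FPKM in LPS+XJDHT, 2.93, 2.89, 0.0373 and 2.90 in LPS and 3.39, 3.86, 4.00 and 3.69 in Control. The library LPS 3 was near 0, and the differences did not pass (adjusted p = 0.13 in LPS and 0.646 in LPS+XJDHT). mt-Nd2 lies between mt-Nd1 and mt-Co1 on the same strand, and mt-Co1 averaged 76521 FPKM in Control. Whether the values listed for mt-Nd2 reflect its level was not tested. With median-ratio scaling mt-Nd1 and mt-Nd5 fell too, so that 5 of 7 passed in each comparison.

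**Figure D4:**
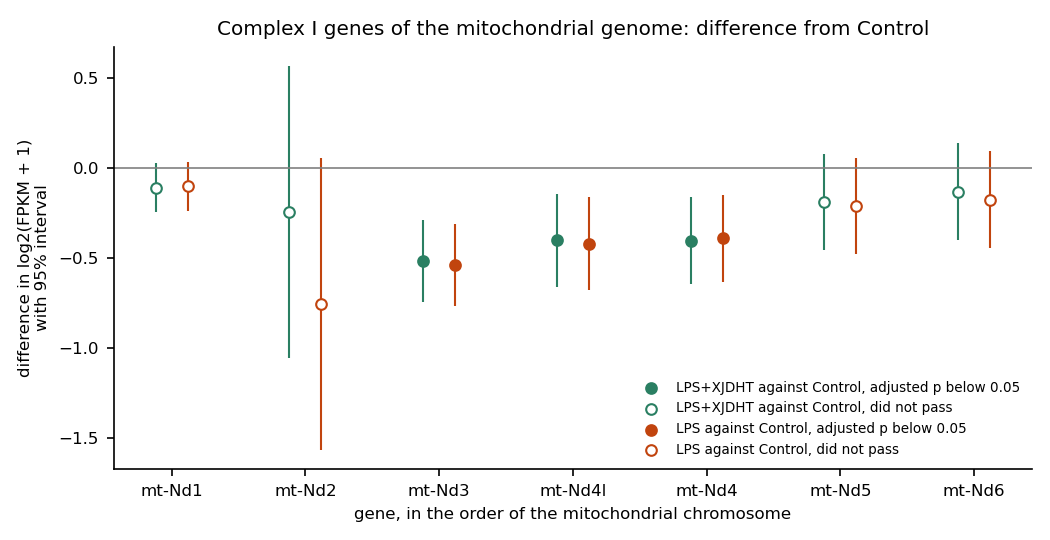
Difference in log2(FPKM + 1) from Control with its 95% interval for the 7 mitochondrial complex I genes in chromosome order, for LPS+XJDHT and for LPS. Filled points, at mt-Nd3, mt-Nd4l and mt-Nd4, passed an adjusted p of 0.05, and the interval of mt-Nd2 is the widest.

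All accessory genes that passed in LPS against Control fell. Among them, the 8 with the largest difference were Ndufa12, Ndufb10, Ndufa8, Ndufab1, Ndufa6, Ndufs4, Ndufc2 and Ndufv3. Ndufa11, described below, had a larger difference than Ndufb10 but did not pass. Ndufb10, a subunit of the outer membrane arm, had 235, 185, 188 and 192 FPKM in LPS+XJDHT, 196, 161, 205 and 187 in LPS and 298, 309, 333 and 317 in Control. The gap to Control was clear in both groups, with a log2 fold change of -0.75 ± 0.10 in LPS (adjusted p = 0.000118) and -0.65 ± 0.10 in LPS+XJDHT (adjusted p = 0.00031). Ndufa8, which lies on the intermembrane side, had 149, 148, 144 and 139 FPKM in LPS+XJDHT, 132, 116, 184 and 159.7 in LPS and 211, 221, 220.0 and 220.4 in Control. LPS values spread most, yet none reached Control, and the log2 fold change was -0.57 ± 0.12 in LPS and -0.59 ± 0.12 in LPS+XJDHT (adjusted p = 0.00249 and 0.00224). Ndufs4, whose loss in mice causes an encephalopathy like human Leigh syndrome, had 48.2, 53.9, 45.1 and 46.4 FPKM in LPS+XJDHT, 47.2, 50.1, 47.1 and 48.7 in LPS and 67.9, 71.4, 69.2 and 74.6 in Control. The groups did not overlap with Control, and the log2 fold change was -0.54 ± 0.07 in LPS and -0.54 ± 0.07 in LPS+XJDHT (adjusted p = 0.000163 and 0.000172).

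Ndufab1 encodes the mitochondrial acyl carrier protein, and Ndufa6 a small subunit that binds it. Ndufab1 had 75.4, 56.1, 75.2 and 48.2 FPKM in LPS+XJDHT, 53.5, 62.9, 57.8 and 58.9 in LPS and 92.4, 73.1, 107 and 79.2 in Control, and Ndufa6 had 114, 132, 137 and 115 FPKM in LPS+XJDHT, 125, 137, 131 and 117 in LPS and 190.2, 204, 176 and 175 in Control. Ndufa6 showed no overlap with Control, while for Ndufab1 LPS+XJDHT 1 and 3 reached the lowest Control library. The log2 fold changes in LPS were -0.57 ± 0.16 and -0.54 ± 0.09 (adjusted p = 0.0129 and 0.000514), and those in LPS+XJDHT -0.47 ± 0.16 and -0.58 ± 0.09 (adjusted p = 0.033 and 0.000346). The call of Ndufab1 in LPS+XJDHT ended without Control 1 or 3 or LPS+XJDHT 2 or 4 (adjusted p = 0.0775, 0.0950, 0.0812 and 0.0906), and when only the 2 groups were fitted (0.0614). Ndufc2, of the membrane arm, had 75.0, 70.8, 67.4 and 59.0 FPKM in LPS+XJDHT, 63.6, 61.6, 75.0 and 77.7 in LPS and 105, 101, 97.6 and 95.5 in Control, and Ndufv3, beside the NADH site, had 152, 136, 144 and 152 FPKM in LPS+XJDHT, 141, 155, 181 and 176 in LPS and 235, 246, 212 and 216 in Control. Both lay under Control in all 8 libraries. Ndufc2 changed by -0.52 ± 0.10 in LPS and -0.55 ± 0.10 in LPS+XJDHT (adjusted p = 0.00144 and 0.00105), and Ndufv3 by -0.48 ± 0.09 and -0.63 ± 0.09 (adjusted p = 0.00143 and 0.000232).

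Ndufa12, a subunit of the peripheral arm, had the largest difference in LPS and an uneven pattern. It stood at 38.6, 25.9, 13.6 and 62.3 FPKM in LPS+XJDHT, 16.6, 15.3, 15.5 and 15.9 in LPS and 24.8, 43.4, 34.1 and 68.8 in Control. The 4 LPS libraries were close together and under Control, while LPS+XJDHT and Control varied several fold. The log2 fold change was -1.28 ± 0.39 in LPS (adjusted p = 0.0231) and -0.38 ± 0.39 in LPS+XJDHT (adjusted p = 0.485). The call in LPS ended without Control 2 or Control 4 (adjusted p = 0.0518 and 0.0666), in limma-voom on recovered fragments (-1.90, adjusted p = 0.0772) and with protein-coding transcripts only (-2.57, adjusted p = 0.0684). A transcript annotated as retaining an intron made up 19.1%, 77.1%, 90.7% and 5.78% of the Ndufa12 value in LPS+XJDHT, 63.8%, 87.3%, 80.3% and 93.2% in LPS and 86.4%, 29.7%, 29.2% and 10.6% in Control. Fitted singly, neither that transcript (log2 fold change 0.08 in LPS, adjusted p = 0.913) nor the protein-coding one (-2.57, adjusted p = 0.0903) passed. The 4 accessory genes with the smallest difference in LPS were Ndufa7, Ndufb6, Ndufb11 and Ndufa9. Ndufa7, of the peripheral arm, had 173, 169, 170.3 and 172 FPKM in LPS+XJDHT, 172, 188, 189 and 178 in LPS and 183, 180.1, 163 and 166 in Control. The groups overlap, and the log2 fold change was 0.07 ± 0.06 in LPS and -0.01 ± 0.06 in LPS+XJDHT (adjusted p = 0.394 and 0.899). With median-ratio scaling its value in LPS turned negative, and it fell in LPS+XJDHT.

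Ndufa9, a peripheral subunit near the ubiquinone site, had 232, 206, 224 and 218 FPKM in LPS+XJDHT, 222, 224, 243 and 248 in LPS and 259, 276, 268 and 252 in Control, and Ndufb6, of the membrane arm, had 110.0, 111, 94.2 and 102 FPKM in LPS+XJDHT, 104, 112, 117 and 122 in LPS and 125, 133, 128 and 123 in Control. In both, Control lay above all other libraries by a small margin. Neither passed in LPS (-0.17 ± 0.06 with adjusted p = 0.051, and -0.17 ± 0.07 with 0.0978). Both fell in LPS+XJDHT (-0.26 ± 0.06 with adjusted p = 0.00741, and -0.29 ± 0.07 with 0.0095). In LPS, however, Ndufa9 passed in 10 of 23 alternatives and Ndufb6 in 2. Ndufb11, an X-linked membrane subunit, had 172, 171, 175 and 152 FPKM in LPS+XJDHT, 159.7, 185, 192 and 185 in LPS and 218, 241, 168 and 192 in Control and did not pass (adjusted p = 0.235 in LPS and 0.0627 in LPS+XJDHT). Of the other 18 accessory genes, whose means were 19.3 to 349 FPKM in LPS+XJDHT, 29.1 to 357 FPKM in LPS and 46.0 to 452 FPKM in Control, 13 fell in LPS by 0.27 to 0.47 on the log2 scale, and 16 fell in LPS+XJDHT by 0.30 to 1.29. The largest of these in LPS+XJDHT was Ndufa11, named after its values were seen, a membrane subunit that faces complex III in supercomplexes, with 15.5, 17.9, 31.1 and 12.6 FPKM in LPS+XJDHT, 28.3, 36.1, 12.5 and 39.5 in LPS and 46.1, 49.6, 44.7 and 43.4 in Control. All LPS+XJDHT libraries were under Control (-1.29 ± 0.33, adjusted p = 0.00924), as were the LPS ones, which did not pass (-0.76 ± 0.33, adjusted p = 0.0905). Of these 18, Ndufa3 lost its call in LPS without Control 1 or 2, LPS 1 or 2 or any 1 library of LPS+XJDHT (adjusted p up to 0.121), and Ndufs6 without Control 1 or 2 (0.0660 and 0.0754). Both also lost it when only the 2 groups were fitted (0.0858 and 0.0643) and when transcripts missing from the LPS+XJDHT files were kept (0.0829 and 0.0615), and Ndufa3 in limma-voom and with sample quality weights (0.0780 and 0.0913), so that its call ended in 12 of 23 alternatives. In LPS+XJDHT, Ndufa1 lost its call without Control 1 or 2 or LPS+XJDHT 2 or 3 (up to 0.0658), and Ndufb1-ps without Control 1 or 2, LPS 1 or 4 or any 1 library of LPS+XJDHT (up to 0.115), with no filter on low values, with only the 2 groups fitted and in limma-voom (0.0503, 0.0587 and 0.0552).

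The assembly factors stood at lower levels per length than nearly all nuclear subunits. Ndufaf3, which acts with Ndufaf4 early in building the ubiquinone module, had 5.11, 5.04, 6.74 and 5.82 FPKM in LPS+XJDHT, 4.54, 3.59, 6.69 and 5.63 in LPS and 8.998, 8.91, 9.72 and 8.34 in Control. Control was above the rest, and the log2 fold change was -0.73 ± 0.15 in LPS and -0.59 ± 0.15 in LPS+XJDHT (adjusted p = 0.00295 and 0.0106). Ndufaf4 had 4.71, 9.34, 3.91 and 3.45 FPKM in LPS+XJDHT, 7.25, 14.1, 7.17 and 4.13 in LPS and 4.71, 6.67, 5.28 and 5.66 in Control, with overlapping groups and LPS 2 the highest. It did not pass (0.38 ± 0.32 with adjusted p = 0.38 in LPS, and -0.13 ± 0.32 with 0.785 in LPS+XJDHT). Ndufaf1, a member of the complex that assembles the membrane arm, had 14.4, 16.9, 14.1 and 14.4 FPKM in LPS+XJDHT, 14.8, 15.9, 15.9 and 17.3 in LPS and 18.8, 19.2, 25.5 and 24.5 in Control. It fell without overlap, by -0.43 ± 0.11 in LPS and -0.52 ± 0.11 in LPS+XJDHT (adjusted p = 0.0113 and 0.00394), and the call in LPS ended (adjusted p = 0.0642) when only protein-coding transcripts were summed.

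Ndufaf5, which hydroxylates an arginine of NDUFS7, had 4.93, 1.61, 5.03 and 4.48 FPKM in LPS+XJDHT, 3.91, 4.42, 5.75 and 6.35 in LPS and 7.30, 6.95, 7.88 and 6.58 in Control. Both LPS groups lay under Control, and the difference passed in LPS+XJDHT (-0.78 ± 0.25, adjusted p = 0.0259, and 0.0547 and 0.0615 without Control 1 or Control 3) but not in LPS (-0.44 ± 0.25, adjusted p = 0.184). Its partner Ndufaf8 had 14.7, 16.5, 15.7 and 13.4 FPKM in LPS+XJDHT, 14.1, 19.8, 17.2 and 16.5 in LPS and 14.4, 20.8, 18.4 and 14.9 in Control, with full overlap and adjusted p = 0.96 in LPS and 0.382 in LPS+XJDHT. Ndufaf2, a paralogue of Ndufa12 that holds its place during assembly, had 15.8, 12.1, 14.52 and 14.6 FPKM in LPS+XJDHT, 15.9, 13.9, 11.8 and 15.9 in LPS and 17.5, 17.5, 17.2 and 16.9 in Control. Control lay above the other libraries, and the adjusted p was 0.0849 in LPS and 0.0743 in LPS+XJDHT. Ndufaf7, a methyltransferase, had 4.39, 5.78, 5.48 and 5.90 FPKM in LPS+XJDHT, 4.66, 6.03, 4.88 and 7.11 in LPS and 7.31, 6.30, 6.21 and 6.84 in Control, and Ndufaf6 had 0.841, 3.31, 2.45 and 1.51 FPKM in LPS+XJDHT, 1.13, 1.62, 1.61 and 3.02 in LPS and 1.69, 2.57, 4.77 and 3.82 in Control. Neither passed (adjusted p = 0.236 and 0.184 in LPS, and 0.139 and 0.234 in LPS+XJDHT).

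Over all genes tested, 12% fell and 26.6% rose in LPS against Control, and 10.7% fell and 28.5% rose in LPS+XJDHT. Of 11 further assembly factors without the Nduf name, 3 fell and 0 rose in LPS against Control, and 4 fell and 0 rose in LPS+XJDHT. Tmem126b, a partner of Ndufaf1 in membrane arm assembly, had the largest difference, at 5.05 ± 0.655 FPKM in LPS+XJDHT, 5.04 ± 1.35 FPKM in LPS and 12.5 ± 0.897 FPKM in Control (log2 fold changes of -1.16 and -1.18, adjusted p = 0.000158 and 0.000134). Timmdc1, of the same assembly complex, averaged 12.2 ± 0.980 FPKM in LPS+XJDHT, 12.2 ± 1.48 FPKM in LPS and 19.3 ± 1.51 FPKM in Control (adjusted p = 0.000719 and 0.000699). Tmem70 fell in both comparisons and Lyrm2 in LPS+XJDHT, while Acad9, Ecsit, Foxred1, Nubpl, Tmem186, Dmac1 and Aifm1 did not pass.

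The 5 other genes carry the name without being part of the enzyme. Ndufa4 is now known as a subunit of cytochrome c oxidase and was among the most abundant nuclear members, at 409, 439, 389 and 388 FPKM in LPS+XJDHT, 417, 623, 412 and 452 in LPS and 500.4, 538, 505 and 468 in Control. LPS 2 was the highest library, and the difference did not pass (adjusted p = 0.547 in LPS and 0.0575 in LPS+XJDHT). Its paralogue Ndufa4l2, known for its induction in hypoxia, had 14.9, 15.1, 10.6 and 12.2 FPKM in LPS+XJDHT, 9.62, 7.93, 12.04 and 15.0 in LPS and 8.34, 11.03, 10.1 and 8.72 in Control. The groups overlap, and its log2 fold change of 0.42 ± 0.18 in LPS+XJDHT (adjusted p = 0.0845) was the only one above 0.2 in that comparison; it passed when only those 2 groups were fitted, and with sample quality weights. The remaining genes are annotated as processed pseudogenes, and reads may be divided between them and their parent genes. Ndufab1-ps had 18.1, 16.2, 12.2 and 13.02 FPKM in LPS+XJDHT, 15.5, 17.6, 16.2 and 16.8 in LPS and 21.2, 24.8, 21.9 and 25.2 in Control, and Ndufb4c had 24.1, 27.5, 26.1 and 24.3 FPKM in LPS+XJDHT, 20.5, 29.7, 27.8 and 29.1 in LPS and 37.8, 39.9, 33.7 and 32.1 in Control. Both lay under Control in all 8 libraries, with log2 fold changes of -0.47 ± 0.12 and -0.42 ± 0.12 in LPS (adjusted p = 0.00954 and 0.0175), and of -0.62 ± 0.12 and -0.47 ± 0.12 in LPS+XJDHT (adjusted p = 0.00189 and 0.00895). Without Control 2 the adjusted p of Ndufb4c in LPS was 0.0510. Ndufs6b had 5.22, 3.50, 1.98 and 4.03 FPKM in LPS+XJDHT, 5.34, 4.76, 4.79 and 3.96 in LPS and 5.37, 7.04, 4.95 and 7.14 in Control, and passed in LPS+XJDHT alone (adjusted p = 0.0274, and 0.0524 to 0.0719 without Control 2 or 4 or LPS+XJDHT 2 or 3 and 0.0512 with only the 2 groups fitted; adjusted p = 0.257 in LPS).

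Between LPS+XJDHT and LPS, which asks what the decoction changed, 0 of 57 genes passed in limma and 0 in limma-voom on recovered fragments, beside 0.113% falling and 0.0% rising over all genes. The median log2 fold change was -0.04 for the members and 0.03 for all genes. At an unadjusted p under 0.05 there was 1 gene, Ndufa12, with a log2 fold change of 0.90 ± 0.39 (adjusted p = 0.994) and the uneven LPS+XJDHT libraries given above. The 95% intervals extended to either side by a median of 0.24 on the log2 scale, and for 45 of 57 genes the whole interval lay within 0.5 of 0. For Ndufb10 it ran from -0.11 to 0.30, for Ndufs4 from -0.16 to 0.16, for Ndufs8 from -0.38 to 0.61 and for mt-Nd3 from -0.20 to 0.25. The limit of 0.5 is wide beside the members' median of -0.36 in LPS against Control, where 18 of 57 genes also met it. Among 133 member transcripts 0 passed (3 at an unadjusted p under 0.05, and 0 in limma-voom), beside 0.0858% falling and 0.0107% rising over all transcripts.

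The other complexes of the respiratory chain were lower as well. In LPS against Control, 4 of 4 genes of complex II fell (median log2 fold change -0.38), 6 of 9 of complex III (-0.31), 10 of 16 nuclear genes of complex IV with 1 rising (-0.28), 10 of 19 of ATP synthase (-0.28) and 4 of 6 other mitochondrial mRNAs (-0.25). In LPS+XJDHT against Control, 4 of 4, 9 of 9, 11 of 16 with 1 rising, 13 of 19, and 4 of 6 with 1 rising did so. The shares over all genes were 12% falling and 26.6% rising in LPS, and 10.7% and 28.5% in LPS+XJDHT. The ATP synthase list takes every symbol starting with Atp5, and so includes Atp5k-ps2, Atp5l-ps1 and Atp5l2-ps, named as pseudogenes. The mitochondrial mRNA that rose was mt-Atp6, whose annotated span overlaps that of mt-Atp8. Its values ran from 15519 to 19877 FPKM in LPS+XJDHT, 3103 to 21246 in LPS and 3617 to 4598 in Control. How reads were divided between these overlapping genes was not tested. The sums of complexes II, III, IV and ATP synthase were 77.0%, 76.6%, 76.9% and 78.8% of Control in LPS+XJDHT and 78.0%, 80.0%, 85.2% and 81.8% in LPS.

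Regulators of these genes were mixed. Of 9 nuclear regulators of mitochondrial genes, 3 fell and 1 rose in LPS against Control, and 1 fell and 0 rose in LPS+XJDHT. These counts stand beside 12% falling and 26.6% rising over all genes in LPS, and 10.7% and 28.5% in LPS+XJDHT. Esrra, an orphan nuclear receptor that drives mitochondrial genes in muscle, averaged 28.0 ± 4.58 FPKM in LPS+XJDHT, 22.7 ± 3.65 FPKM in LPS and 54.0 ± 3.35 FPKM in Control. It fell by 0.93 in LPS+XJDHT and by 1.23 in LPS on the log2 scale (adjusted p = 0.000257 and 3.96e-05). Its relatives Esrrb and Esrrg fell in LPS, to 2.51 ± 1.87 and 0.793 ± 0.503 FPKM, against 5.12 ± 1.19 and 2.12 ± 0.699 FPKM in Control (adjusted p = 0.0317 and 0.0416). Gabpb1, a subunit of the ETS-family factor GABP, rose in LPS, to 4.17 ± 0.772 FPKM, against 2.00 ± 0.735 FPKM in Control (adjusted p = 0.00547), and Nrf1, Yy1, Gabpa, Ppargc1a and Ppargc1b did not pass in either comparison. Of 7 factors of mitochondrial transcription and RNA stability, Lrpprc, which stabilises mitochondrial mRNAs, fell to 24.5 ± 1.20 FPKM in LPS+XJDHT and 21.2 ± 3.36 FPKM in LPS, against 36.4 ± 3.71 FPKM in Control (adjusted p = 0.00332 and 0.000413). Tfam, which packages and transcribes mitochondrial DNA, fell in LPS (adjusted p = 0.0141) and did not pass in LPS+XJDHT (adjusted p = 0.14), and the other 5 did not pass.

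Promoters of complex I genes were searched on both strands for short sequences bound by such factors, in the 250 bases before the start of each gene as given by RefSeq for GRCm38. Windows were at hand for 40 member genes and for 27025 genes in all. GCGCANGCG, a form of the site of NRF1, the nuclear respiratory factor, was in 17.5% of members (7 of 40) and 5.86% of all genes. AANATGGC, a form of the YY1 site, was in 15.0% and 4.49%, and with 50 bases after the start included, in 35.0% and 6.96%. CCGGAAG, of the ETS family, was in 12.5% and 7.83%, and AAGGTCA, a core site of oestrogen-related receptors, in 7.5% and 4.70%. None of these motifs was defined from another, matches of different motifs may share letters, and a match is not a site of binding. Promoters of all genes were not matched to those of members in base composition. The windows of 3 genes that fell in both comparisons are printed as examples, 5′ to 3′ on the gene's strand with the matched letters in capitals. Ndufb10, at chr17:24724424-24724673 on the minus strand, and Ndufs8, at chr19:3912775-3913024 on the minus strand, hold YY1 letters. Ndufa8, at chr2:36049339-36049588 on the minus strand, holds NRF1 letters.
Ndufb10 promoter window: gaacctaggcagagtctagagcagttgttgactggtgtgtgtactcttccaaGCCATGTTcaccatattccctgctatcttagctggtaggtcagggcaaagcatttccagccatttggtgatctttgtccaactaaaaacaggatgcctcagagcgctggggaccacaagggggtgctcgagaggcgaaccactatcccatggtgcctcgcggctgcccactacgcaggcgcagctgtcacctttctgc
Ndufs8 promoter window: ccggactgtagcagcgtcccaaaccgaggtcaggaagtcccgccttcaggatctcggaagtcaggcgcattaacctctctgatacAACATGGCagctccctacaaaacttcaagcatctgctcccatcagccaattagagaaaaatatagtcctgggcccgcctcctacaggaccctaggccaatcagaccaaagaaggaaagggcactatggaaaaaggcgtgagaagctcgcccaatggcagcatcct
Ndufa8 promoter window: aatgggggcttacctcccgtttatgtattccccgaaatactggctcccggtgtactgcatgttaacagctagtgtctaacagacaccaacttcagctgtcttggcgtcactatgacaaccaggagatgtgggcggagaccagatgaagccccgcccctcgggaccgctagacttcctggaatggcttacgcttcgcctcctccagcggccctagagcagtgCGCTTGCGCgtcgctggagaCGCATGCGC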

How the data were processed

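Total RNA depleted of ribosomal RNA was sequenced from 12 mouse heart libraries, 4 a group. The authors deposited FPKM values per transcript, the unit being read from the values and the labels. The submitters' processing notes name mm10 and limma without saying for which step. Which programs aligned the reads and quantified transcripts is not given in the sources used here. Control and LPS files share a list of 36293 transcripts, and LPS+XJDHT files share another of 35802. Values were therefore taken from the 24723 transcripts of GENCODE M21 that are in both, summed per gene. In comparisons with LPS+XJDHT, an effect of the set of files cannot be told apart from that of the group. Left out were 10120 assembled transcripts without an Ensembl ID and 43 outside the annotation. Values below that of 30 fragments came out as whole fragments, within 0.1, for 99.1% to 99.5% of cases, which gave the depth. No column of per-sample values was left unused.

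The fit took in genes reaching 1 FPKM in 4 or more libraries, as log2(FPKM + 1) over all 3 groups in limma (trend, Benjamini-Hochberg adjustment, two-sided), a scale that understates changes of low genes. Single transcripts were fitted likewise, an analysis added after the data were seen. The members, gene lists and motifs were chosen with earlier results of these data known. Values in every library are given for the core, assembly and other genes named, and for the 8 largest called and the 4 smallest differences among accessory genes in LPS against Control. One item is not reported here. Alternatives changed the pseudocount, filter, scaling, weights, transcripts and libraries used. The scripts were tested on simulated data. Tools were R 4.3.3, limma 3.58.1, pandas 2.3.3, NumPy 2.4.6, matplotlib 3.10.9 and Python 3.11.15.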

Additional observations from a re-analysis of the deposited data

Results flagged for a closer look

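Of 180 groups of 4 values examined, 10 held 1 library far from the other 3, where chance gives about 1 in 20. In LPS+XJDHT, Ndufa10, an accessory subunit of the membrane arm, stood at 35.6 FPKM in library 2 and at 111 to 123 FPKM in the others, and without this library the gene passed in LPS+XJDHT and in LPS against Control. Ndufaf5 in the same library was listed at 1.61 FPKM, against 4.48 to 5.03 FPKM in the others, and Ndufaf1 at 16.9 FPKM, against 14.1 to 14.4 FPKM. LPS+XJDHT 1 stood above its group for Ndufb10 (235 FPKM, others 185 to 192 FPKM) and the sum of the accessory subunits (4016 FPKM, others 3760 to 3788 FPKM).

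In LPS, mt-Nd2 was listed at 0.0373 FPKM in library 3 and at 2.89 to 2.93 FPKM in the others. LPS 1 stood under its group for mt-Nd1 (25619 FPKM, others 28738 to 29291 FPKM) and Ndufb5 (104 FPKM, others 145 to 149.9 FPKM). In Control, library 1 stood under its group for Ndufs7 (125 FPKM, others 187 to 199 FPKM) and Ndufa8 (211 FPKM, others 220.0 to 221 FPKM).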

How the results depend on the processing

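Of the 32 genes that fell in LPS against Control, 25 passed in every one of the 23 alternatives that tested them. Of the 39 in LPS+XJDHT against Control, 31 passed in every one of the 22 that tested them. Mitochondrial genes were not tested with scaling to nuclear fragments. Genes without a protein-coding transcript were not tested with protein-coding transcripts only. In addition 15 and 11 further genes passed in at least 1 alternative. Leaving out 1 library in turn gave 27 to 35 genes that fell in LPS and 35 to 40 in LPS+XJDHT, with 0 rising, and medians of -0.39 to -0.34 and of -0.43 to -0.37; LPS+XJDHT against LPS gave 0 called, with medians of -0.09 to -0.02. Member transcripts that fell numbered 25 to 35 in LPS and 30 to 42 in LPS+XJDHT, and those that rose 4 to 6 and 5 to 8. With median-ratio scaling the median of the members was -0.56 in LPS and -0.65 in LPS+XJDHT, and 49 transcripts fell in LPS; scaling to nuclear fragments gave -0.49 in LPS+XJDHT. Ndufa4l2 was the 1 gene that rose in LPS+XJDHT when only those 2 groups were fitted, or with sample quality weights. limma-voom on recovered fragments gave 31 and 38 genes that fell, and 3 transcripts that rose in LPS+XJDHT. The cause was not tested. For the leave-one-out and limma-voom fits, and for transcripts with median-ratio scaling, the shares over all genes or transcripts are not given here. No paired analysis was possible because the labels give each library a number of its own, none shared between groups; the numbers 1 to 4 used here follow the order of deposit and only name libraries. Differences under about 0.24 log2, the median reach of the intervals to either side, are mostly below what 4 libraries a group resolve.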
